A study of Mus musculus with 16 samples.

Results

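Gamma cells, also called PP cells, are the islet endocrine cells that make pancreatic polypeptide, and the 74 human cells described here are those that carry the gamma cell label in the sample table of the study that first sequenced them. They were among 1081 single cells of 6 donors without type 2 diabetes whose public reads were re-quantified for a series that otherwise measured a mouse beta cell line with and without the purinergic receptor gene P2ry1. The sample table listed 75 gamma cells of these donors, of which 74 were in the matrix, beside 437 alpha, 164 beta, 59 delta, 135 ductal and 111 acinar cells and cells of 8 rarer or unresolved classes. The human cells carried no treatment, transgene or other manipulation in the labels. They had been sorted 1 per well from dispersed islets, so their numbers describe the cells sequenced and not the islet. The labels had been assigned in the original study from the expression of the same cells. The comparisons below therefore describe labelled cells, and their p-values are not independent evidence that the labels are right.

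Islets hold several endocrine cell types that each release 1 main peptide hormone: alpha cells glucagon (GCG), beta cells insulin (INS), delta cells somatostatin (SST), epsilon cells ghrelin (GHRL) and gamma cells pancreatic polypeptide (PPY). Pancreatic polypeptide belongs to the neuropeptide Y family, is released after meals under vagal control and acts through the receptor NPY4R. Gamma cells are few and are concentrated in the part of the pancreatic head that derives from the ventral bud.

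The gamma cells came from 6 donors, given here by arbitrary numbers, with 31, 2, 18, 1, 15 and 7 cells in donors 1 to 6. They made up 0.995% to 14.1% of a donor's annotated cells (median 6.72%), and 1.09% to 17.6% of its endocrine cells (median 10%). The order of donors depended on the denominator: donor 5, which gave 80 of the 111 acinar cells, had 6.41% gamma cells among all cells and 17.6% among endocrine cells. A gamma cell held between 36859 and 1724196 counts (median 461004), close to the median of 462127 in alpha cells. Counts were summed per donor and type, and only sums of at least 5 cells were compared, so 71 gamma cells of donors 1, 3, 5 and 6 entered the tests as 4 replicates, with 3475411 to 14811013 counts each. The other 3 cells, from donors 2 and 4, were kept apart. Levels of sums are CPM, the count as a share of the library size adjusted by TMM factors, levels of single cells are CPM of the plain total, and a CPM value compares 1 gene between samples, never different genes. No 2 cell columns of the matrix were identical.

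**Figure D1:**
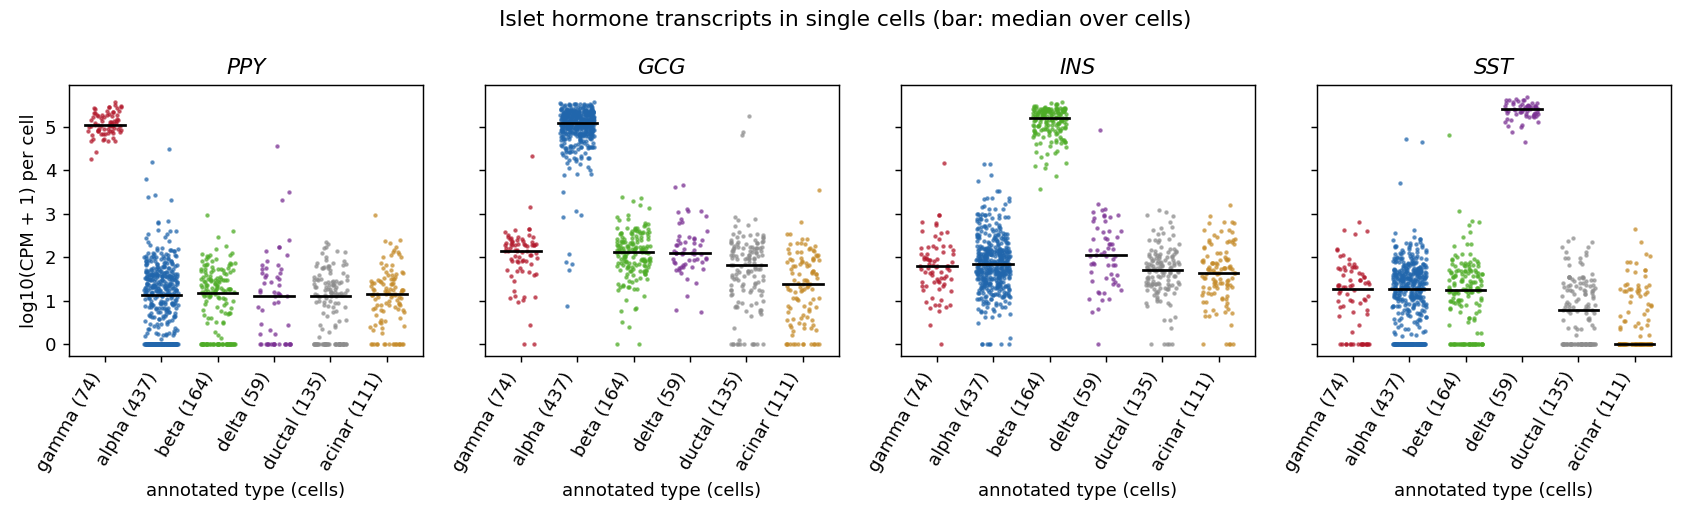
Transcripts of the 4 main islet hormones in single cells of 6 annotated types, as log10(CPM + 1) per cell, with the number of cells in brackets and a bar at the median. All 74 gamma cells lie at or above 18500 CPM of PPY, and a few cells of other types reach the level of a second hormone.

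PPY was abundant in every labelled gamma cell. It took 1.85% to 37.7% of a gamma cell's counts, with a median of 11.0%, and the 3 cells of donors 2 and 4 were within that range at 23.5%, 28.8% and 26.6%. In the summed cells PPY stood at 98400, 196000, 91300 and 92200 CPM in donors 1, 3, 5 and 6. The 6 alpha sums held 6.24 to 182 CPM with a median of 55.3, the 6 beta sums 4.74 to 112 CPM with a median of 25.7, and the 5 delta sums 1.02 to 4659 CPM with a median of 18.7. No gamma sum overlapped a sum of another endocrine type. Donor 3 was about 2-fold above the other 3 gamma sums, which differed little among themselves. PPY differed from alpha cells by 9.67 ± 1.35 on the log2 scale (fitted value ± SE), with an adjusted p of 0.000135 in edgeR's quasi-likelihood test. Against delta cells the difference was 8.27 ± 1.49 with an adjusted p of 0.00375. It missed the 0.05 threshold against delta cells without donor 1 and when only gamma and delta sums were fitted, where the adjusted p reached 0.147.

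Small amounts of PPY were spread over all other types. A count was present in 70.9% of alpha, 70.7% of beta, 67.8% of delta, 68.1% of ductal and 84.7% of acinar cells, at medians of 12.8, 14, 11.9, 11.9 and 12.8 CPM. Ductal and acinar cells, which are not known to make the hormone, were at the same medians, and the share was highest in acinar cells. The median depth was 462127 counts in alpha, 403632 in ductal and 662623 in acinar cells. Such counts are not read here as expression, and their origin was not tested. Well above these medians were 6 alpha and 3 delta cells with at least 1000 CPM, the highest at 30200 and 35500 CPM. PPY2P, a pseudogene copy of PPY whose reads may be shared with it, was listed at no more than 0.168 CPM in any gamma sum. PYY, the gene of the related peptide YY, had counts in 5.41% of gamma cells and was at most 1.03 CPM in a gamma sum.

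The hormones of the other endocrine types were low in most gamma cells, near the levels in endocrine cells that do not make them and in part above those in exocrine cells. GCG had a median of 140 CPM per gamma cell, beside 130 in beta, 122 in delta, 64.0 in ductal and 22.8 in acinar cells, and 124000 in alpha cells. INS had a median of 60.1 CPM in gamma cells, 68.5 in alpha, 109 in delta, 49.8 in ductal and 43.1 in acinar cells. SST had a median of 18.0 CPM in gamma cells, 17.2 in alpha, 16.4 in beta, 5.19 in ductal and 0 in acinar cells, and 251000 in delta cells. In the sums INS was higher in gamma than in ductal cells, by 2.42 ± 0.80 (edgeR adjusted p = 0.0451), with overlapping ranges. The gamma sum of donor 5 was at 530 CPM of INS and the other gamma sums at 69.2 to 89.5 CPM. Gamma cells of donor 5 had a median of 117 CPM of INS, with 1 cell at 15000 CPM. Results of this call with donors left out are not reported here. Neither GCG nor SST passed against ductal or acinar cells. At least 1 count of GCG, INS, SST or GHRL was present in all 74 gamma cells, a share that says nothing of expression at this depth, since 99.3% of alpha cells and all ductal cells also held a hormone not their own. With a threshold of 1000 CPM the share fell to 3 of 74 gamma cells, or 4.05% (exact 95% interval 0.844% to 11.4%, counting error only). The same share, PPY then counted among the other hormones, was 5.95% of alpha, 4.27% of beta, 22.0% of delta and 3.70% of ductal cells. A single gamma cell held 21600 CPM of GCG and another 15000 CPM of INS. In the thinned cells, where every cell was drawn down to 100000 counts and 6 shallower gamma cells were left out, 2 of 68 gamma cells had 100 or more counts of another hormone. No doublet caller was run, and cells with several hormones had been given a class of their own by the original study.

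The other 3 gamma markers were found in unequal shares of the group. MEIS2, a TALE homeobox regulator, had counts in all 74 gamma cells. ETV1, an ETS family regulator, had counts in 69 of 74 (93.2%, interval 84.9% to 97.8%) and SERTM1, a small membrane protein gene, in 48 of 74 (64.9%, interval 52.9% to 75.6%). Of the 3, 45 gamma cells held all, 27 held 2 and 2 cells held 1. In alpha cells the shares were 69.3% for MEIS2, 42.8% for ETV1 and 12.8% for SERTM1, and no beta cell of 164 had a SERTM1 count. SERTM1 was found in 15 of 31 gamma cells of donor 1, 12 of 18 of donor 3, 12 of 15 of donor 5 and 6 of 7 of donor 6, and in all 3 cells of donors 2 and 4.

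In the sums MEIS2 was at 330, 302, 226 and 182 CPM in gamma cells of donors 1, 3, 5 and 6, above every alpha sum (26.1 to 67.9), every beta sum (38.5 to 128) and every delta sum (43.7 to 106). Its log2 difference was 2.40 ± 0.32 against alpha (edgeR adjusted p = 6.81e-05), 1.5 ± 0.32 against beta (adjusted p = 0.00614) and 1.84 ± 0.34 against delta cells (adjusted p = 0.00497). The difference from beta cells was the smallest of the 3. Without donor 3 the MEIS2 calls against beta and delta cells were lost, with adjusted p of at most 0.0833 and 0.111. ETV1 was at 197, 181, 165 and 296 CPM in gamma cells, with medians of 18.2, 13.4 and 46.8 CPM in alpha, beta and delta cells. Its ranges did not overlap with any of the 3 types, and it passed against alpha (3.33 ± 0.86, adjusted p = 0.0391) and beta (3.58 ± 0.86, adjusted p = 0.0157) but not against delta cells (1.98 ± 0.89, adjusted p = 0.303). The ETV1 call against alpha cells was lost without any 1 of the 6 donors, where the adjusted p was at most 0.115, and the ETV1 call against beta cells was lost without donor 1 (adjusted p = 0.0655). SERTM1 was at 63.1, 67.2, 32.8 and 89.6 CPM in gamma cells and 0.78 to 6.20 CPM in alpha cells, a difference of 4.74 ± 1.39 that did not pass (adjusted p = 0.0900). In beta sums SERTM1 was 0 throughout, so the mean of the gamma sums was at least 127-fold higher, taking 3 counts per sum as the floor. The SERTM1 call against delta cells (adjusted p = 0.00747) was lost without donor 3, with adjusted p of at most 0.109 over the alternatives.

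**Figure D2:**
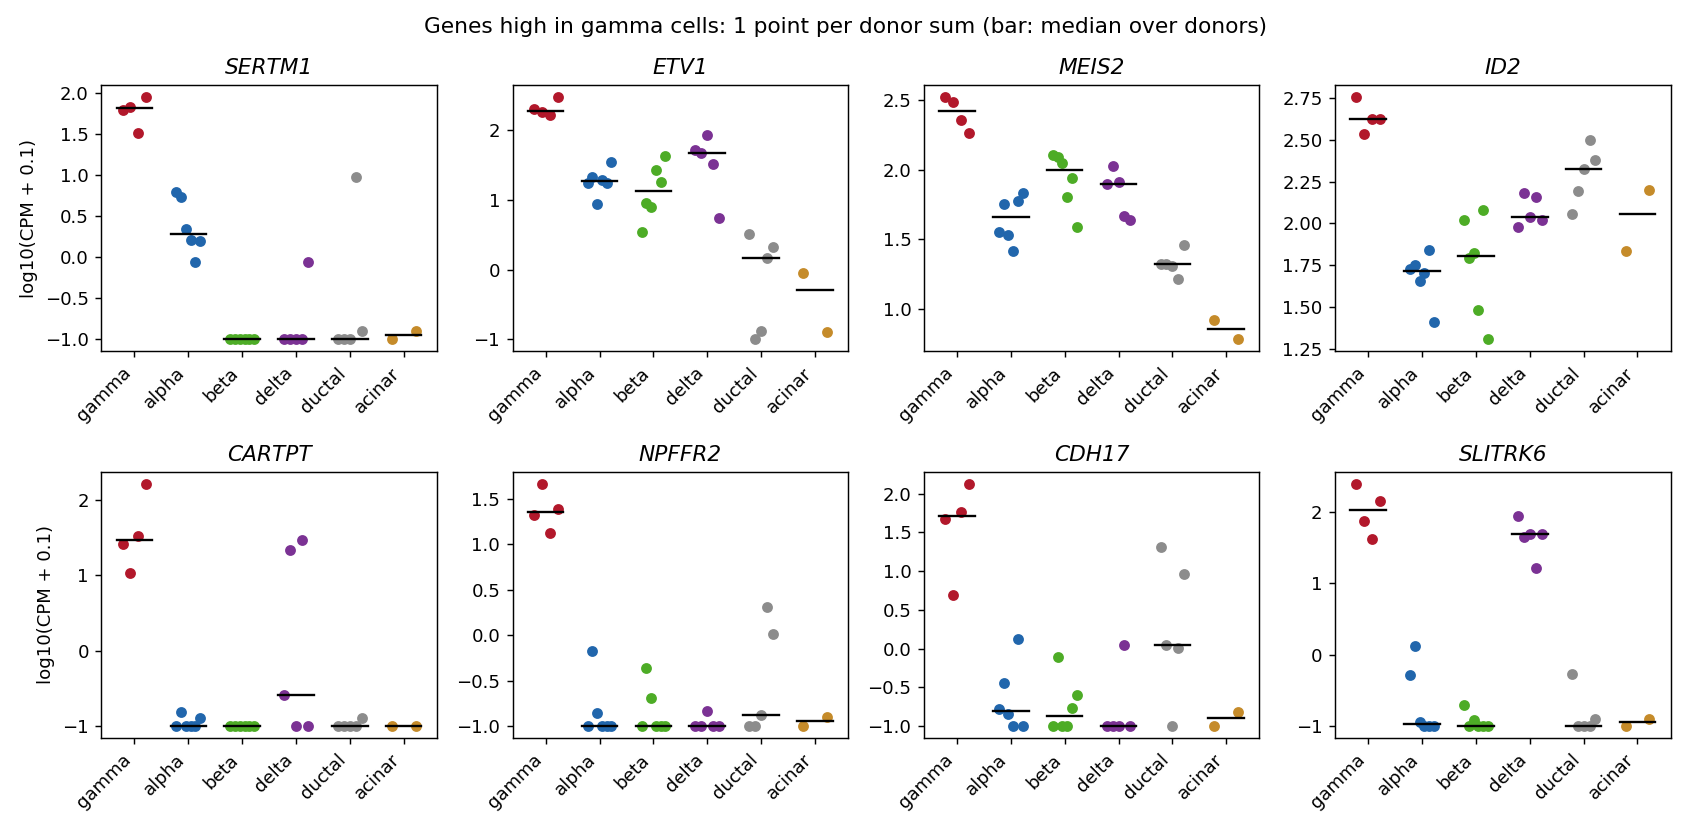
Levels of 8 genes in sums of cells, 1 point per donor, as log10(CPM + 0.1) on a scale that differs between panels, with a bar at the median over donors. The gamma points lie above all alpha, beta and delta points for SERTM1, ETV1, MEIS2, ID2, NPFFR2 and CDH17, while 1 delta sum reaches 29.7 CPM of CARTPT and SLITRK6 is shared with delta cells.

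Across the 21666 genes tested, 127 were higher and 270 lower in gamma than in alpha cells (0.586% and 1.25% of genes tested), 444 higher and 512 lower than in beta cells (2.05% and 2.36%), and 123 higher and 125 lower than in delta cells (0.568% and 0.577%). The 3 comparisons share the gamma sums. The median log2 difference over all genes was -0.35, -0.03 and 0.08 against alpha, beta and delta cells. It moved to -0.12, 0.15 and 0.12 with relative log expression factors in place of TMM, with which 160 genes were higher and 160 lower than in alpha cells, 579 higher and 364 lower than in beta cells, and 135 higher and 126 lower than in delta cells. In this text a gene is said to be higher or lower only where the adjusted p was under 0.05. The counts fell without most single donors. Without donor 6 they were 316 against alpha, 941 against beta and 268 against delta cells, the last of these above the full count. Against alpha cells 246, 250, 131 and 232 genes passed without donors 1, 2, 3 and 5. Against beta cells 533, 329 and 540 passed without donors 1, 3 and 5. Against delta cells 111, 131, 77, 149 and 143 passed without donors 1 to 5.

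Of all genes tested, 13 (0.0600%) were higher in gamma than in each of alpha, beta and delta cells, and 11 of them were so in every donor with both sums. Besides PPY and MEIS2 the list held the regulators ID2 and MLLT3, the secreted peptide gene CARTPT, the receptor NPFFR2, the cadherin CDH17, the collagen chain COL6A2, the proprotein convertase FURIN, LRCH3, TMEM271, ANKRD30B and UGT2B4. ANKRD30B and UGT2B4 fell outside the naming rule, since each was at 0 in 1 gamma sum, and are named after their values were seen. With the 35 lower genes described next, 48 genes were called in all, 25, 21, 15, 31 and 29 without donors 1 to 5, and 57 without donor 6. ANKRD30B had counts in 8 of 74 gamma cells and UGT2B4 in 13 of 74.

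ID2, an inhibitor of basic helix-loop-helix factors, stood at 569, 344, 423 and 423 CPM in the gamma sums and had counts in 93.2% of gamma cells. Alpha sums held 25.5 to 69.1 CPM, beta sums 20.2 to 121 CPM and delta sums 95.5 to 152 CPM, all below the lowest gamma sum. The log2 difference was 3.28 ± 0.36 against alpha (adjusted p = 4.4e-06), 2.90 ± 0.36 against beta (adjusted p = 1.52e-05) and 1.83 ± 0.38 against delta cells (adjusted p = 0.0123), the last of which was lost without donor 1 or donor 3 (adjusted p of at most 0.0977). ID2 is not confined to gamma cells among all types, since 93.3% of ductal and 83.8% of acinar cells also had a count.

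CARTPT, which encodes the neuropeptide CART, was at 26.3, 10.8, 33.3 and 164 CPM in the gamma sums. It was 0 in all beta sums and at most 0.0517 CPM in alpha sums. With 3 counts per sum as the floor, the mean of the gamma sums was at least 118-fold above beta cells, a mean that includes the sum at 164 CPM. Counts were found in 21 of 74 gamma cells (28.4%, interval 18.5% to 40.1%), 2 of 437 alpha, 0 of 164 beta and 5 of 59 delta cells. The difference from delta cells, in which 1 sum reached 29.7 CPM, had an adjusted p of 0.0409 and was lost under 11 of 18 alternatives, among them without donor 1, 2, 3, 5 or 6 (adjusted p of at most 0.409). NPFFR2, a receptor of neuropeptide FF, was at 20.6, 46.0, 13.1 and 24.4 CPM in gamma sums and at most 0.569 CPM in any alpha, beta or delta sum. Its adjusted p was 0.000595, 0.000422 and 0.00314 against the 3 types, and counts were present in 19 of 74 gamma cells against 6 of 437 alpha cells. CDH17, the liver-intestine cadherin, was at 46.3, 4.83, 57.6 and 134 CPM and in 31 of 74 gamma cells, beside 12 of 437 alpha and 26 of 135 ductal cells. The CDH17 call against delta cells (adjusted p = 0.0245) was lost without donor 1, 2, 3, 5 or 6, with adjusted p of at most 0.287. All 3 of these genes were found in a minority of gamma cells. CARTPT and CDH17 shared 15 gamma cells, and CARTPT and NPFFR2 shared 7.

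LRCH3, FURIN and MLLT3 also had counts in every alpha, beta and delta sum. LRCH3, a leucine-rich repeat protein gene, was at 95.1, 61.6, 62.7 and 114 CPM in gamma sums and at 4.29 to 22.9 CPM over all alpha, beta and delta sums. The LRCH3 calls against alpha and delta cells were lost without donor 5, and that against delta cells also without donor 3. FURIN overlapped with the other types, at 51.9 to 125 CPM in gamma and 13.7 to 123 CPM in alpha sums, and its call against alpha cells (adjusted p = 0.0337) was lost under 12 of 18 alternatives, among them without any 1 of the 6 donors. The FURIN call against beta cells (adjusted p = 0.00932), in which 1 sum reached 192 CPM, was lost without donor 1 or 3 (adjusted p of at most 0.79 over the alternatives). MLLT3, a transcription regulator, was at 71.5, 58.4, 29.8 and 66.8 CPM in gamma sums, at 2.56 to 25.8 CPM in alpha, 4.91 to 44.0 CPM in beta and 7.47 to 17.3 CPM in delta sums. All 3 MLLT3 calls were lost without donor 3 or 5, and that against delta cells also without donor 1 or 2, with adjusted p of at most 0.188, 0.245 and 0.69 against alpha, beta and delta cells.

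TMEM271 and COL6A2 rested on few cells. TMEM271 had counts in 10 of 74 gamma cells, and its calls against alpha, beta and delta cells were lost under 9 of 17, 7 of 17 and 12 of 16 alternatives. Without donor 1, 3 or 5 no TMEM271 call passed, and without donor 4 only that against beta cells did (adjusted p of at most 0.772 over the alternatives). The TMEM271 call against delta cells was lost without any 1 of the 6 donors. COL6A2 had counts in 15 gamma cells, 9 of them from donor 5, and was at 0.601, 5.27, 8.21 and 29.3 CPM in gamma sums. The COL6A2 call against delta cells (adjusted p = 0.0353) was lost under 9 of 16 alternatives, among them without donor 1, 2, 3, 4 or 6 (adjusted p of at most 0.197).

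A longer list of 35 genes (0.162%) was lower in gamma than in each of the other 3 endocrine types, 27 of them in every donor with both sums. PPP1R1A, an inhibitor of protein phosphatase 1 in cAMP signalling, was at 0.18, 0, 0.168 and 0 CPM in gamma sums, against medians of 214 CPM in alpha, 157 CPM in beta and 79.3 CPM in delta sums. It had counts in 4 of 74 gamma cells (5.41%, interval 1.49% to 13.3%) but in 91.1% of alpha, 81.1% of beta and 71.2% of delta cells. Its log2 difference was -10.51 ± 1.22 against alpha cells (adjusted p = 1.03e-05), and all 3 calls were kept under each of the 18 alternatives. HPN, a membrane serine protease gene, was at most 1.01 CPM in gamma sums and at least 24.7 CPM in every alpha, beta and delta sum. Its 3 differences lay between -7.70 and -8.81 with adjusted p of at most 4.37e-06, and they too were kept throughout.

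KCNK16, the islet two-pore potassium channel TALK-1, was at 1.56, 0.125, 0 and 0 CPM in gamma sums and at medians of 139, 178 and 106 CPM in alpha, beta and delta sums, and its call against delta cells was lost without donor 3 (adjusted p of at most 0.0824). SUSD4, a complement regulator, had counts in 1 of 74 gamma cells against 40% of alpha and 65.9% of beta cells. NPY, the relative of PPY that gives the family its name, had counts in 1 gamma cell, 8.01% of alpha and 28.0% of beta cells. NPTX2, a secreted pentraxin, was at 0.205 to 6.20 CPM in gamma and 195 to 1131 CPM in beta sums. Its call against alpha cells was lost without donor 1 (adjusted p of at most 0.435). The orphan nuclear receptor NR0B2, the long RNA SSTR5-AS1, SENP8 and AL139300.1 completed the genes named by rule. The NR0B2 call against delta cells (adjusted p = 0.0428) was lost without donor 1, 4, 5 or 6, with adjusted p of at most 0.999 over the alternatives. The SENP8 calls were lost without donor 1, 3 or 5 against alpha and without donor 1, 2, 3 or 5 against delta cells (at most 0.113 and 0.165). The AL139300.1 calls were lost under 9, 4 and 13 of 18 alternatives against alpha, beta and delta cells, all 3 of them without donor 1 or 3 (at most 0.233, 0.233 and 0.911). Against alpha and delta cells they were also lost without donor 2 or 6, and against delta cells without donor 4. The SSTR5-AS1 call against alpha cells (adjusted p = 0.014) was lost without donor 3 or 5 (0.0738 and 0.0776). SSTR5-AS1 lies antisense to a receptor gene, and reads of overlapping genes cannot be told apart without strand.

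**Figure D3:**
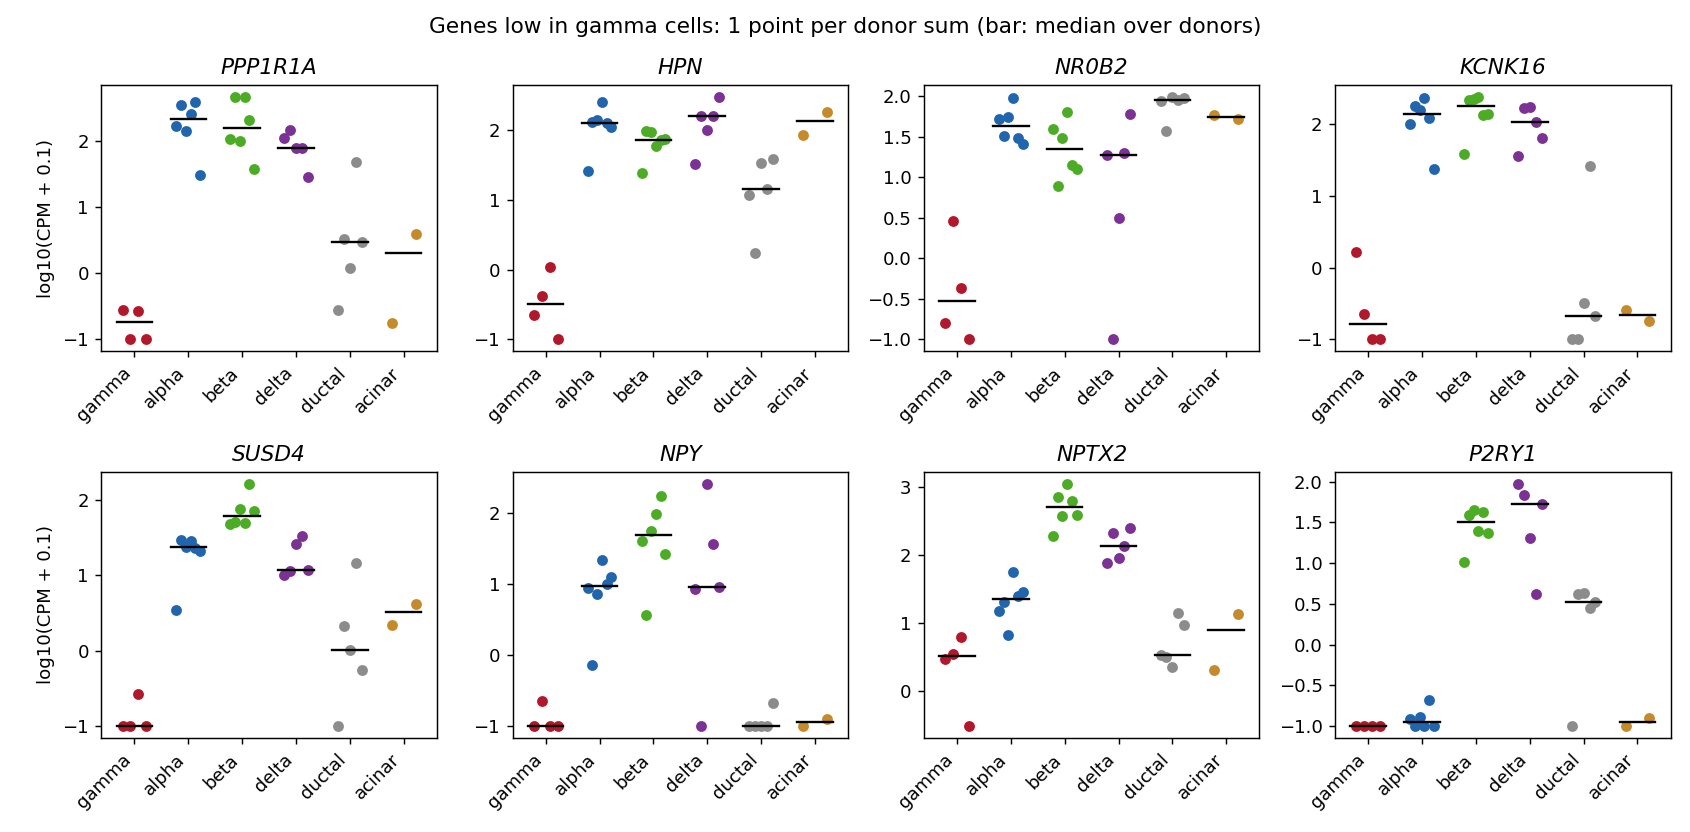
Levels of 8 genes in sums of cells, 1 point per donor, as log10(CPM + 0.1), with a bar at the median over donors. For PPP1R1A, HPN, KCNK16, SUSD4 and NPTX2 every gamma point lies below every alpha, beta and delta point, and P2RY1 is at 0 in all 4 gamma sums.

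Among 41 transcription regulators of islet cells, of which 40 were tested, 7 were higher and 1 lower in gamma than in alpha cells, 8 higher and 5 lower than in beta cells, and 5 higher and 2 lower than in delta cells. Over all genes tested the shares higher and lower were 0.586% and 1.25% against alpha, 2.05% and 2.36% against beta and 0.568% and 0.577% against delta cells. The list's median difference was 0.21, 0.25 and 0.62 against the 3 types, beside -0.35, -0.03 and 0.08 over all genes. The same shares and medians over all genes are the background to the counts of every list below. With each of the 6 donors left out in turn, 5 of the 7 and 5 of the 8 higher calls against alpha and beta cells passed every time, and 0 of the 5 against delta cells. Of the lower calls 1 of 1, 2 of 5 and 1 of 2 did. The general endocrine regulators did not pass against alpha, beta or delta cells: PAX6 was at 444 to 779 CPM in gamma sums, NEUROD1 at 163 to 541 CPM and ISL1 at 97.5 to 207 CPM, with counts in 97.3%, 97.3% and 89.2% of gamma cells.

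IRX2, a regulator typical of alpha cells, was found in few gamma cells. Counts were present in 12 of 74 gamma cells (16.2%, interval 8.67% to 26.6%) and 88.1% of alpha cells, and the gamma sums were at 3.37, 0.627, 7.04 and 45.5 CPM beside 44.3 to 157 CPM in alpha sums. The highest gamma sum, from 7 cells, overlapped the alpha range, and the difference did not pass (-2.98 ± 1.37, adjusted p = 0.315). IRX2 was higher in gamma than in beta and in delta cells. The call against beta cells was lost under 1 of 17 alternatives. That against delta cells was lost under 5 of 17, among them without donor 1, 5 or 6. IRX1 was 0 in all gamma sums. FEV, a serotonergic ETS factor, was found in 52.7% of gamma and 72.3% of alpha cells and in 4.88% of beta cells. GATA6 was found in 41.9% of gamma, 43.9% of alpha and 2.44% of beta cells, and was higher in gamma than in beta cells (adjusted p = 7.95e-05) although 1 gamma sum was at 0.

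PDX1, needed for pancreas formation and beta cell function, lay between types. It was at 15.4, 30.1, 25.0 and 6.77 CPM in gamma sums, above all alpha sums (0 to 1.45), with 3 of 4 below all beta sums (26.0 to 774) and 3 of 4 within the delta range (13.6 to 197). The log2 difference was 6.42 ± 0.64 against alpha (adjusted p = 1.16e-06), -2.52 ± 0.61 against beta (adjusted p = 0.0158) and -1.20 ± 0.60 against delta cells (adjusted p = 0.355). The PDX1 call against beta cells was lost without donor 3 (adjusted p of at most 0.0746). The beta cell regulator MAFA had counts in 1 gamma cell and HHEX, which maintains delta cells, in 4.05% of gamma and 89.8% of delta cells. MEIS1, a relative of MEIS2, was higher in gamma than in alpha cells (2.11 ± 0.30, adjusted p = 0.000135) with a difference of -0.08 ± 0.31 from delta cells.

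**Figure D4:**
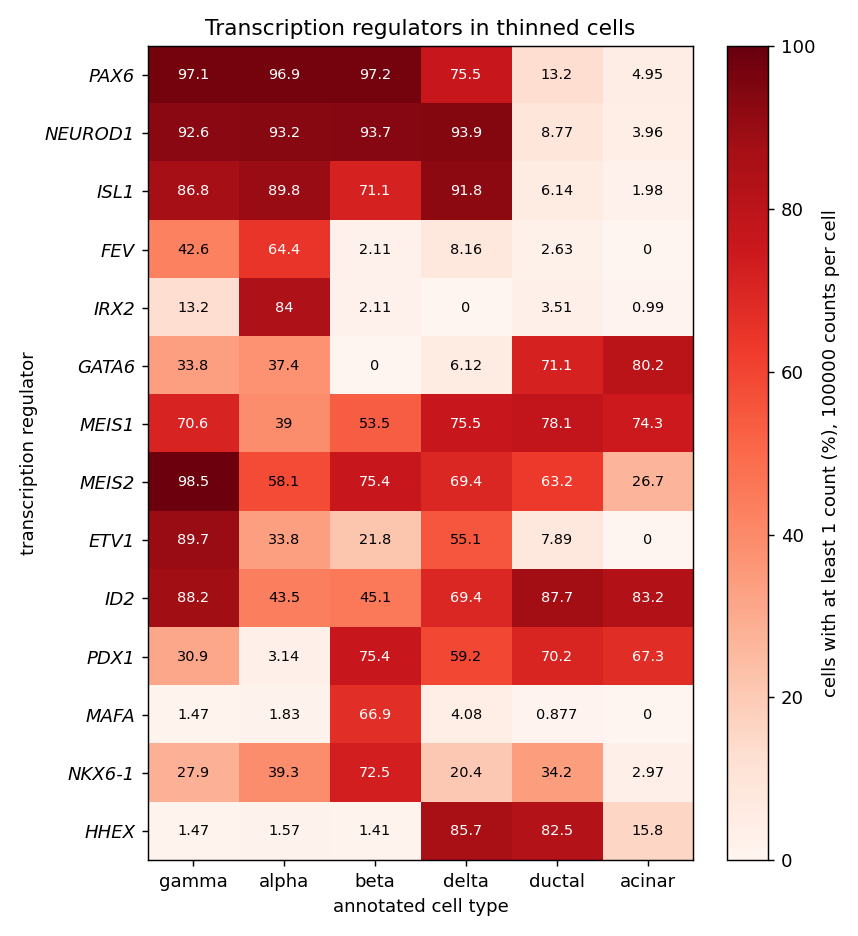
Percentage of cells with at least 1 count of 14 transcription regulators, after each cell was thinned to 100000 counts, in 6 annotated types (68 gamma cells). Gamma cells share PAX6, NEUROD1 and ISL1 with alpha, beta and delta cells and show 13.2% for IRX2. They are highest for MEIS2 and ETV1, and by a small margin for ID2 (88.2%, beside 87.7% in ductal cells).

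Of the 7 alpha markers, GCG and LOXL4 were lower in gamma than in alpha cells and the other 5 did not pass. Against beta cells 5 of the 7 were higher, and against delta cells 4. With each donor left out, 4 of these 5 passed every time against beta cells, but 1 of the 4, GC, against delta cells. GC, the vitamin D binding protein, was at 1190, 318, 1170 and 475 CPM in gamma sums, at 828 to 2175 CPM in alpha sums and at no more than 15.0 CPM in beta or delta sums. The log2 difference of GC was 8.20 ± 0.745 against beta (adjusted p = 5.43e-07) and -0.97 ± 0.61 against alpha cells (adjusted p = 0.504). TM4SF4, a tetraspanin-like membrane protein, was at 1753 to 3226 CPM in gamma, 2589 to 6829 CPM in alpha and 1.41 to 206 CPM in beta sums. LOXL4, a lysyl oxidase, was at 0.601 to 15.4 CPM in gamma and 264 to 1368 CPM in alpha sums. TTR, transthyretin, was at 8780, 8880, 23100 and 6570 CPM, between the alpha sums (30740 to 68610) and the beta sums (1206 to 6211), with no overlap and no adjusted p under 0.05.

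Of the 7 beta markers, 6 were lower in gamma than in beta cells, ADCYAP1 being the exception, and of the 6 delta markers 5 were lower than in delta cells. With each donor left out 5 of these 6 and 4 of these 5 passed every time. PRG4 (lubricin), listed as a delta marker, was shared: it was at 56.7, 24.7, 100 and 40.4 CPM in gamma and 16.3 to 327 CPM in delta sums, a difference of 0.04 ± 0.84. It was higher in gamma than in alpha and beta cells, and the call against alpha cells was lost without donor 2, 5 or 6 (adjusted p of at most 0.275). RBP4, the retinol carrier, was the opposite, at 0.615 to 19.5 CPM in gamma and 4657 to 20090 CPM in delta sums. LEPR, the leptin receptor, was at 4.51 CPM or less in gamma sums and at 205 CPM or more in delta sums.

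Among 23 peptide genes, 17 of them tested, PPY and CARTPT were higher in gamma than in each type, ADCYAP1 only against alpha and UCN3 only against delta cells at this threshold. UCN3 was 0 in all delta sums and at 13.7, 9.59, 10.2 and 24.0 CPM in gamma sums. CRH, found in 76.9% of alpha cells, was at most 1.69 CPM in gamma sums. Among 13 granins and processing enzymes, all tested, the only members higher were FURIN in each comparison and PCSK1 against alpha cells, and none was lower. PCSK1, the convertase typical of beta and delta cells, was at 67.9, 112, 147 and 301 CPM in gamma sums, above all alpha sums (4.46 to 18.8) and below the beta median of 370 CPM. It differed from alpha cells by 3.58 ± 0.56 (adjusted p = 0.000446). Chromogranin B, CHGB, was at 5401 to 10990 CPM in gamma and 4597 to 19580 CPM in alpha sums. None of the 7 pan-endocrine markers passed in any of the 3 comparisons.

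Ion channels set the membrane potential that couples stimuli to hormone release. Of 34 tested, 0 were higher and 2 lower against alpha, 5 higher and 2 lower against beta, and 1 higher and 1 lower against delta cells. The list medians were -0.11, 0.84 and 0.71, beside -0.35, -0.03 and 0.08 over all genes. Over all genes tested 0.586%, 2.05% and 0.568% were higher and 1.25%, 2.36% and 0.577% lower than in alpha, beta and delta cells. Of the calls against beta cells, those of CACNA2D3, KCNJ3 and KCNK16 passed with each donor left out. KCNJ3, a G-protein gated inward rectifier, was at 33.1, 26.6, 19.4 and 82.6 CPM in gamma sums, at 16.2 to 46.1 CPM in alpha sums and at most 0.614 CPM in beta sums. KCNH6, a voltage-gated potassium channel, was at 53.3 to 183 CPM in gamma and at most 3.44 CPM in delta sums. It was higher than in beta and delta cells, and the call against beta cells was lost without donor 1 or 3 (adjusted p of at most 0.0853). KCNK17, a relative of KCNK16, was lower than in alpha and beta cells, calls lost without donor 2, 3, 5 or 6 (at most 0.178 and 0.241), and was found in 5.41% of gamma and 52.4% of alpha cells. The subunits of the ATP-sensitive channel, ABCC8 and KCNJ11, did not pass against alpha, beta or delta cells, and ABCC8 had counts in all 74 gamma cells.

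Of 36 G-protein coupled receptors tested, 2 were higher and 2 lower against alpha, 3 higher and 4 lower against beta and 1 higher and 3 lower against delta cells. The list medians were -0.56, -0.07 and 0.33, beside -0.35, -0.03 and 0.08 over all genes. Shares over all genes tested were 0.586%, 2.05% and 0.568% higher and 1.25%, 2.36% and 0.577% lower. Of the higher calls only that of CASR against alpha cells passed with each donor left out, and of the lower calls those of FFAR4, GCGR and GLP1R against beta and of FFAR4 against delta cells. OPRM1, the mu opioid receptor, was higher than in beta cells (adjusted p = 0.0273) with counts in 4 of 74 gamma cells, a call lost without donor 1, 2, 3, 4 or 5 (at most 0.133). PTGFR, the receptor of prostaglandin F2 alpha, had counts in 26 of 74 gamma cells (35.1%, interval 24.4% to 47.1%), 3 of 437 alpha, 1 of 164 beta and 1 of 59 delta cells. Its gamma sums were at 52.8, 16.9, 7.54 and 29.5 CPM. It passed against alpha and beta cells (adjusted p = 0.00712 and 0.00556), but not against delta cells (adjusted p = 0.257), in which 1 sum held 14.6 CPM. Without donor 1 neither PTGFR call passed, nor did that against alpha cells without donor 3 (adjusted p of at most 0.0595). CASR, the calcium-sensing receptor, was at 82.1, 92.0, 107 and 15.0 CPM in gamma sums, above the alpha range of 0.0529 to 7.86 CPM and under the beta and delta medians of 166 and 157 CPM. CHRM3, a muscarinic acetylcholine receptor through which vagal signals reach islet cells, was at 105, 57.9, 108 and 63.6 CPM in gamma sums with counts in 73.0% of gamma cells. No alpha sum exceeded 7.76 CPM, no beta sum 28.1 CPM and no delta sum 0.764 CPM of CHRM3. Only the difference from delta cells passed (adjusted p = 0.0209), with 0.225 against alpha and 0.0567 against beta cells, and it was lost without donor 2, 3 or 5 (at most 0.0904). GLP1R, GCGR, FFAR4 and ADRA2A, all called lower than in beta cells, were at 0.12 CPM or less in every gamma sum, and the ADRA2A call was lost without donor 5. NPY4R, the receptor of pancreatic polypeptide, was listed at 0 in all gamma, alpha, beta and delta cells. The genome holds a near-identical copy of this gene, so the 0 is uncertain.

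P2RY1, the receptor whose mouse counterpart the series deleted, was not detected in gamma cells. A count was present in 0 of 74 cells, which allows a share of up to 4.05% of cells with a count, and in 0 of 68 thinned cells, which allows up to 4.41%. In thinned cells it was found in 34.5% of beta, 28.6% of delta, 14% of ductal and 0% of 382 alpha cells. Beta sums were at 10.3 to 44.4 CPM and delta sums at 4.10 to 94.0 CPM. With 3 counts per sum as the floor and means over sums, gamma cells were at least 82.0-fold lower than beta (adjusted p = 0.000247) and at least 130-fold lower than delta cells (adjusted p = 0.000485). Alpha cells had at most 0.111 CPM. Of 27 purinergic receptors and nucleotide enzymes 10 were at 0 in all gamma sums, and the summed level of the list was 25.2 to 110 CPM in gamma cells beside 101 to 263 CPM in alpha and 109 to 266 CPM in beta cells. None of the 18 tested was higher in gamma cells in any of the 3 comparisons. ADORA2A, an adenosine receptor, was lower than in alpha cells, P2RY1 and the ectonucleotidase ENTPD3 lower than in beta cells, and P2RY1 lower than in delta cells. The ADORA2A call was lost without donor 1, 3, 4 or 5 (adjusted p of at most 0.196) and the ENTPD3 call without donor 2 or 5 (at most 0.0642). P2RX4, an ATP-gated channel, was detected in 51.4% of gamma cells and ENTPD2 in 59.5%. The median difference of the list was -1.38, -0.24 and -0.72, beside -0.35, -0.03 and 0.08 over all genes.

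All 25 genes of the exocytosis machinery were tested, and the only calls were SYT13 lower than in beta cells and SYT1 lower than in delta cells. The list medians were 0.02, -0.02 and 0.00, beside -0.35, -0.03 and 0.08 over all genes. SYT1, a calcium sensor, was 0 in all gamma sums and had counts in 25.4% of delta cells. Both calls were lost without donor 3 or donor 5 (adjusted p of at most 0.121 for SYT13 and 0.330 for SYT1). Of 18 genes of glucose handling none passed against alpha cells, while 2 were higher and 5 lower than in beta cells, with list medians of -0.65 and -0.73. Against delta cells 1 was higher and 1 lower, with a median of 0.34, and neither passed with each donor left out. Without donor 5 neither of the higher calls against beta cells, LDHA and the glucose transporter SLC2A3, passed. Of the 5 lower calls those of PFKFB2 and ALDOA passed with each donor left out. The phosphofructokinase regulator PFKFB2 was at 66.6, 19.5, 5.87 and 27.3 CPM in gamma and 196 to 1038 CPM in beta sums, a difference of -4.60 ± 0.56 (adjusted p = 1.48e-05). LDHA, lactate dehydrogenase A, was 2.58 ± 0.59 higher than in beta cells (adjusted p = 0.0106), a call lost without donor 5 (at most 0.311), and SLC2A3 was at 3.25, 33.2, 7.04 and 39.2 CPM in gamma and at most 5.24 CPM in beta sums (adjusted p = 0.0419), a call lost under 10 of 18 alternatives. The glucose transporter SLC2A2 was at 0.12 CPM or less. Its call against beta cells was lost without donor 1, 3, 4 or 5 (at most 0.193), and that of LDHB, lactate dehydrogenase B, without donor 1, 3 or 5 (at most 0.129). G6PC2, the islet glucose-6-phosphatase, was at 748, 494, 136 and 139 CPM in gamma and at most 74.5 CPM in delta sums (adjusted p = 0.00318), a call lost without donor 1 or 3 (at most 0.0624).

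Among 28 neuronal and adhesion genes tested, 3 were higher and 1 lower against alpha, 3 higher and 4 lower against beta and 1 higher and 1 lower against delta cells. The list medians were 1.17, 1 and 1.12, beside -0.35, -0.03 and 0.08 over all genes. With each donor left out, the calls that passed every time were the higher ones of SLITRK6 against alpha and beta cells and of THSD7A against alpha cells, and the lower ones of ROBO2 against alpha and beta and of CADM1 against beta and delta cells. THSD7A and SLITRK6 were found in gamma and delta cells and rarely in alpha or beta cells. THSD7A, a thrombospondin-repeat protein, was at 115, 99.8, 89.7 and 82.4 CPM in gamma and 17.2 to 53.5 CPM in delta sums, with counts in 73.0% of gamma, 37.3% of delta and 2.06% of alpha cells. SLITRK6, a neurite-regulating membrane protein, was at 246, 74.9, 41.1 and 139 CPM in gamma and 16.4 to 86.4 CPM in delta sums, with counts in 63.5%, 42.4% and 5.03% of gamma, delta and alpha cells. Neither passed against delta cells (adjusted p = 0.497 and 0.451), and both passed against alpha and beta cells, but the THSD7A call against beta cells was lost without donor 2, 3, 4 or 5 (adjusted p of at most 0.131). ROBO2, an axon guidance receptor, was at most 0.301 CPM in gamma sums and lower than in alpha and beta cells. The adhesion molecule CADM1 was lower by 2.96 ± 0.41 than in beta (adjusted p = 7.41e-05) and by 2.85 ± 0.42 than in delta cells (adjusted p = 0.000485).

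Among 27 growth factor signalling genes 1 was higher and 2 lower against alpha, 5 higher and 1 lower against beta and 1 higher and 3 lower against delta cells. The list medians were -0.09, 0.67 and 0.83, beside -0.35, -0.03 and 0.08 over all genes. The single higher call against alpha cells, of FGFR1, was lost without donor 1, 2, 3, 4 or 5 (adjusted p of at most 0.468), and the single higher call against delta cells, of IGFBP7, without donor 2, 3, 4 or 6 (at most 0.27). Against beta cells 2 of the 5 higher calls, of FGFR1 and SERPINA1, passed with each donor left out. FGFR1 was at 181, 251, 243 and 131 CPM in gamma and 7.75 to 90.5 CPM in beta sums, and was found in 98.6% of gamma cells. SERPINA1, alpha-1 antitrypsin, was at 1570, 174, 1810 and 422 CPM in gamma sums, within the alpha range, and at most 61.4 CPM in beta sums. Of 20 immediate early and stress genes 4 were higher (FOS, JUNB, BTG2 and HSPB1) and 4 lower (IER3, HSPA1B, DDIT3 and HSPA5) than in beta cells, and 0 were higher than in alpha or delta cells, with list medians of -0.14, -0.08 and -0.24. Of the calls against beta cells, those of BTG2 and DDIT3 were lost without donor 1 (adjusted p = 0.071 and 0.0862). That of JUNB was lost without donor 1 or 6 (0.102 and 0.0538) and that of HSPA5 without donor 1 or 3 (0.129 and 0.0811). HSPA5 was also lower than in alpha cells (adjusted p = 0.0318), a call lost with relative log expression factors and without donor 1, 3, 4 or 6 (at most 0.354). IER3 was also lower than in delta cells (-3.87 ± 0.81, adjusted p = 0.0155), a call lost without donor 2 or 5 (at most 0.999 over the alternatives).

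Markers of other pancreatic cells were read in the same sums. The summed ductal markers reached 0.41 to 16.3 CPM in gamma cells and 4430 to 30600 CPM in ductal cells, stellate markers 0.335 to 4.87 CPM and mast cell markers 0, with TPSAB1, CPA3 and KIT all at 0. Of 5 endothelial, 5 macrophage and MHC class II and 4 Schwann cell markers, 2, 4 and 2 were tested. Of those tested, 1 of each list was higher in gamma than in beta cells and none passed as higher than in alpha or delta cells. The only tested member called lower was CD68, a macrophage lysosomal protein gene, at 0.0601 to 0.205 CPM in gamma sums. It was lower than in alpha (-6.73 ± 1.44, adjusted p = 0.0103), beta (-7.16 ± 1.45, adjusted p = 0.00437) and delta cells (-6.51 ± 1.46, adjusted p = 0.0249). Without donor 3 no CD68 call passed, without donor 1 those against alpha and delta cells did not, and without donor 2 or 4 that against delta cells did not. ESAM, an endothelial adhesion molecule, was at 3.25, 2.01, 0 and 0 CPM in gamma sums and at most 0.0204 CPM in beta sums (adjusted p = 0.0482), with counts in 4 of 74 gamma cells, and the call was lost without donor 1, 2, 3, 4 or 5 (at most 0.677). CD74, the MHC class II invariant chain, was at 14.8, 29.2, 31.5 and 14.6 CPM in gamma and 0.433 to 12.2 CPM in beta sums (adjusted p = 0.0137), a call lost without donor 5 (0.0968). Alpha and delta sums also held CD74, at 17.4 to 127 and 24.8 to 40.4 CPM. S100B, a calcium-binding protein of Schwann cells, was at 19.2, 16, 6.70 and 23.2 CPM in gamma and at most 1.84 CPM in beta sums, a difference of 5.74 ± 1.33 (adjusted p = 0.0118) lost without donor 1 or 3 (0.0751 and 0.0593). It was at 1.03 to 30.1 CPM in alpha and 10.4 to 37.8 CPM in delta sums and had counts in 25.7% of gamma cells. Summed acinar markers were at 48.9 to 321 CPM in gamma sums with a median of 163, above the medians of 4.8 CPM in alpha (1.88 to 696), 20.8 CPM in beta (1.84 to 286) and 69.3 CPM in delta sums (2.76 to 391), with overlapping ranges, and at 96300 to 241000 CPM in acinar sums. Of the 7 acinar markers CPB1 was higher in gamma than in alpha and beta cells, at 38.9, 39.2, 34.0 and 254 CPM, with a difference of -0.71 ± 1.37 from delta cells, and the other 6 did not pass. PRSS1, trypsinogen, was at 96.9 CPM in gamma cells of donor 5 and at most 1.68 CPM in the other 3 sums. In donor 5 the summed acinar markers had a median of 423 CPM per gamma cell, 300 CPM per alpha cell and 262 CPM per beta cell. In donor 1 these medians were 2.33, 1.49 and 1.68 CPM, in donor 3 they were 11.2, 6.66 and 5.15 CPM, and in donor 6 they were 32.5, 0.598 and 21.1 CPM. The 2 gamma cells of donor 2 had a median of 2160 CPM, with medians of 0 in its alpha and in its beta cells, and the single gamma cell of donor 4 was at 0. In every donor but donor 4 the gamma median was thus above the alpha and beta medians, a difference that was not tested. Delta cells had medians of 0.769, 15.1, 321 and 14.7 CPM in donors 1, 2, 5 and 6, below the gamma medians. In donor 3 the delta median of 79.4 CPM was above that of gamma cells. The part of RNA from these other cell types in the differences was not tested.

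Among the 4 donors with at least 5 gamma cells, donor 5 showed the most genes per cell, in gamma, alpha and beta cells. Over all counts of a cell, donors 2 and 4 were also high: alpha cells had medians of 8034.5, 7517.5 and 8483.5 genes in donors 2, 4 and 5 and 4307.5 to 5580 in donors 1, 3 and 6, and the single gamma cell of donor 4 had 8242. At 100000 counts per cell a gamma cell of donor 5 showed a median of 7121.5 genes, against 3379, 4304 and 3558 in donors 1, 3 and 6. Within donors, gamma cells had 185 fewer genes than alpha cells on average, fewer in 3 of 4 donors (exact two-sided sign-flip permutation p = 0.5). They had 383 more genes than beta cells, in 3 of 4 donors (exact permutation p = 0.25), and 50.5 more than delta cells, in 2 of 3 donors (exact permutation p = 1). After adjustment over the 3 comparisons the values were 0.75, 0.75 and 1. With 4 donors the smallest p this test allows is 0.125, and with 3 donors 0.25, so it could not pass 0.05. Among gamma genes, detection by donor was uneven for CDH17, with counts in 12 of 15 cells of donor 5 and 9 of 31 cells of donor 1. For MEIS2 it was complete in every donor.

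**Figure D5:**
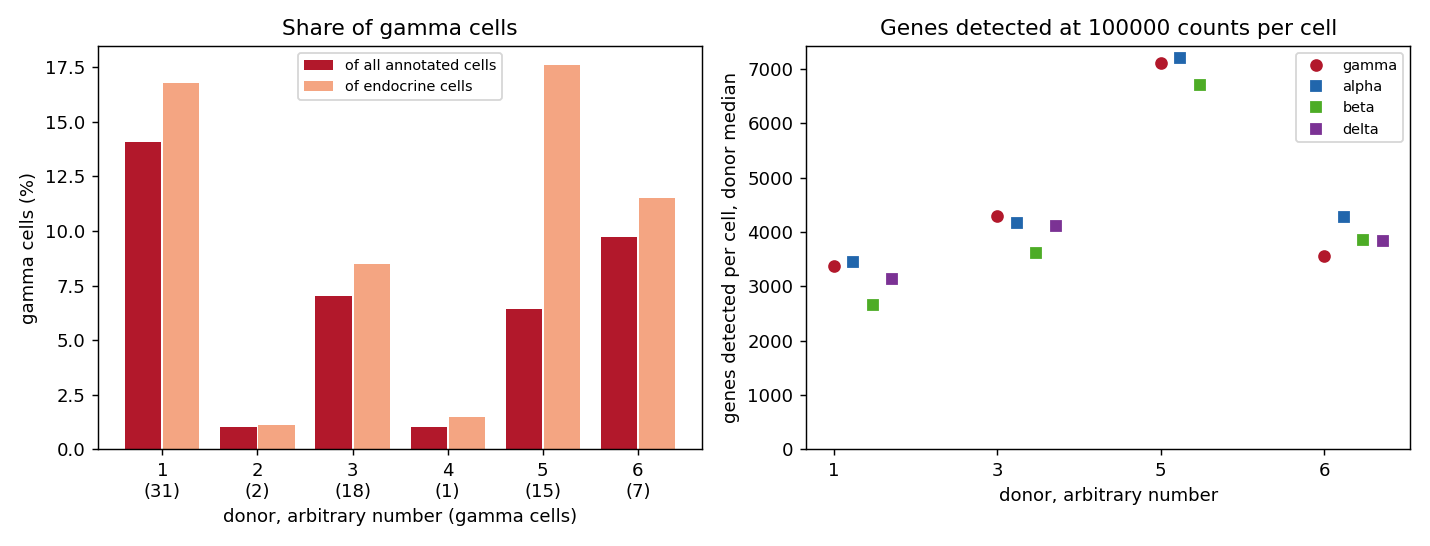
Left, percentage of gamma cells among all annotated cells and among endocrine cells of each donor, with the number of gamma cells in brackets. Right, donor medians of genes detected per cell at 100000 counts for the 4 donors with at least 5 gamma cells; donor 5 lies between 6715 and 7200 genes for gamma, alpha and beta cells, and the other 3 donors lie between 2650 and 4304.

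The 3 gamma cells of donors 2 and 4, which took no part in the fit, were compared with alpha, beta and delta cells of their own donor. Apart from PPY, 7 of the 12 remaining higher genes were above all 3 types in the 2 cells of donor 2, and 4 had no count. In the single cell of donor 4 the numbers were 6 of 12 and 6 without a count. Of the 35 lower genes 23 and 24 were below all 3 types in donors 2 and 4, and 20 and 21 of the 35 had no count in those gamma cells. With 1 or 2 cells a gene without a count may be missed, so these counts are a description with no test.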

How the data were processed

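Full-length single-cell RNA-seq libraries without molecular identifiers were quantified by the depositors with RSEM 1.3.3 on Hg38 (GRCh38.p12), per the series' design text. The deposited matrix holds counts per gene and cell, whole numbers, for 57980 genes and 1081 cells; a second deposited matrix with identical values was not used. Cell types and donors come from the deposited sample table of the original study, and cells of low quality had been removed by the authors. From the counts, 184 genes that tell donors apart were left out. Counts were summed per donor and annotated type where at least 5 cells were present. Sums of gamma, alpha, beta, delta, ductal and acinar cells entered 1 fit, filtered with filterByExpr (minimum count 10, minimum total 15), scaled by TMM and blocked by donor. The quasi-likelihood test of edgeR (version 4.0.16, under R version 4.3.3) was adjusted by Benjamini-Hochberg over 21666 genes and read at a threshold of 0.05. The block stands for the donor, since sums with the same number come from the same person. Shares of cells are given with exact 95% binomial intervals, which cover counting error only, and a count of 0 allows 3 counts. Shares said to be thinned were taken after drawing each cell down to 100000 counts.

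The genes named were the 4 gamma markers, the islet hormones, P2RY1, up to 4 members per list and direction by adjusted p, and, among genes past the threshold against all 3 endocrine types in every donor, the 15 highest and 10 lowest. Other list members in the text were chosen after their values were seen. The members and lists were chosen with earlier results of these data known. Alternatives used DESeq2 1.42.0, limma 3.58.1, other factors, filters, cell minimums and depths, no block, and each donor left out. Gene lengths and a human genome were not used here, so no coordinates or sequences are given. Results on some list members are not reported here.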

Additional observations from a re-analysis of the deposited data

Results flagged for a closer look

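In 28 of 96 gene values tested over the 4 gamma sums, the highest sum stood so far from the other 3 that its gap exceeded 0.829 of the whole range. Chance gives about 1 in 20 for values spread normally, a figure that does not hold for levels near 0. In 13 of the 28 the other 3 sums were exactly 0, and 12 of these 13 genes had 5 or fewer counts over all gamma sums, so that 1 count could decide the outcome. The highest sum came from donor 1 for 8 genes, donor 3 for 7, donor 5 for 9 and donor 6 for 4. Among the hormones PPY reached 196000 CPM in donor 3, GCG 838 CPM in donor 1, INS 530 CPM in donor 5, and the peptide gene CARTPT 164 CPM in donor 6. Per gamma cell, GCG in donor 1 had a median of 191 CPM and 1 cell at 21600 CPM. INS in donor 5 had a median of 117 CPM and 1 cell at 15000 CPM. PPY in donor 3 had a median of 216000 CPM per gamma cell. Of genes with levels above the lowest, CACNA2D3 reached 18.5 CPM, IRX2 45.5 CPM, RBP4 19.5 CPM, CPB1 254 CPM, DLK1 8.38 CPM and LDHB 7.79 CPM.

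The other flagged genes were at 2.76 CPM or less in every gamma sum. Besides the highest sum, low levels were present in other sums for NR0B2 (at most 0.335 CPM), KCNK16 (0.125), HHEX (0.0601), ADORA2A (0.0627) and UNC5D (0.0627). The highest sum was at 2.76 CPM for NR0B2, 1.86 CPM for KCNK17, 1.56 CPM for KCNK16 and 1.01 CPM for ADORA2A. It was at 0.503 CPM for HHEX and UNC5D, 0.335 CPM for AL139300.1, 0.301 CPM for ROBO2 and 0.188 CPM for TGFBR3. It was at 0.168 CPM for SUSD4, MAFA and SIX3, 0.125 CPM for NPY, 0.12 CPM for FFAR4, SLC2A2 and CDH2, and 0.0627 CPM for GCGR and GLP1R.

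PPY was also high in cells outside the comparisons. At least 10000 CPM was present in 3 of 25 cells of the co-expression class, the highest at 20500 CPM, and in 1 of 29 unclassified endocrine cells, at 14200 CPM. In alpha cells the same level was reached by 2 of 437 cells.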

How the results depend on the processing

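Of 172 calls on named genes (99 genes, each against 1 endocrine type), 67 were kept under every alternative run. Over 3062 values under alternatives, 2563 kept the call, 499 lost it and none changed direction. The counts of genes called against alpha, beta and delta cells were 397, 956 and 248, and 48 genes were called against all 3. With DESeq2 they were 1759, 3257, 2302 and 518. With limma on mean log2(CPM + 1) over cells they were 1045, 1938, 793 and 236. Without the low-count filter 659 genes were called against alpha and 552 against delta cells, and 98 against all 3. When only the 2 types compared were fitted, the counts were 159, 150, 26 and 3. Without the donor as a replicate block, which pairs sums of the same person, they were 191, 514, 162 and 28. With at least 10 cells per sum 124 genes were called against delta cells and 24 against all 3, and with at least 3 cells 29 against all 3. With only cells of at least 100000 counts, an alternative chosen after seeing the data, 28 genes were called against all 3. Leaving out each donor in turn gave 131 to 316 genes against alpha, 329 to 941 against beta, 77 to 268 against delta cells and 15 to 57 against all 3. The cause of these shifts was not tested.

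The difference in genes detected per cell between gamma and delta cells, 50.5, turned to -59.83 when 5 counts were required, to -45.75 without donor 1 and to -19.0 without donor 3. Leaving out each donor gave -292.7 to -5.167 against alpha, 267.2 to 610.0 against beta and -45.75 to 216.2 against delta cells. The share of gamma cells holding another hormone, 4.05% at 1000 CPM, was 75.7% at 100 CPM, 100% at 1 or 10 counts, 40.5% at 100 counts, 100% at 1 count after thinning and 2.94% at 100 counts after thinning. The median gamma share per donor was 6.72% of all annotated cells and 10% of endocrine cells. The 4 gamma sums, 1 of them from 7 cells, limit the precision of every gene found in a minority of cells.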
